A study of Mus musculus with 18 samples.

Results

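RNA bound to single ribosomes was compared between Dgcr8 knockout (KO) and wild-type (WT) mouse embryonic stem cells (ESCs). The 3 libraries labelled DGCR8KO monosome were set against the 3 labelled WT monosome, gene by gene, out of 18 libraries in the polysome count table. The WT cells were V6.5 ESCs, and the KO cells were 1 established Dgcr8 KO ESC line, so that a difference between the genotypes is also a difference between 2 lines. Both were grown with serum, LIF and the inhibitors PD0325901 and CHIR99021, which hold ESCs in a naive state. All cells received 100 ug/ml cycloheximide for 2 minutes before lysis, and lysates ran on 10 to 50% sucrose gradients. Each of the 6 gradients was also cut into low polysomes, with 2 to 4 ribosomes per message, and high polysomes, with 4 or more. These libraries serve to show where monosomes differ. They also entered the choice of genes tested and the fit that gave the monosome errors and p-values. Reads came from the 3′ ends of polyadenylated RNA. No source says that the replicates were separate cultures, so p-values measure the spread between these libraries, which may be technical.

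DGCR8 binds primary microRNA transcripts and, with the nuclease DROSHA, cuts the hairpins out of them, and without it the canonical microRNAs are not made. In ESCs most of the microRNA pool belongs to the ESCC family, the embryonic stem cell enriched cell cycle microRNAs of the miR-290 and miR-302 clusters, which pair through a shared seed with the 3′ UTR of their targets and repress them. The monosome fraction holds messages that carry a single ribosome: short messages, messages whose translation seldom starts, and RNAs that are not translated to any length. The level of a gene in it therefore rests on how much of the RNA the cell holds as well as on how the RNA spreads along the gradient, and monosome libraries alone cannot tell these apart.

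The microRNAs whose loss the comparison bears on are shown first, as RefSeq lists their mature forms on GRCm38.p6, 5′ to 3′, with the seed (bases 2 to 8) in capitals. The first 5, from the miR-290 and miR-302 clusters, share 1 seed. The seed of miR-17-5p holds the same core moved by 1 base, and let-7a-5p, which ESCs hold at low levels, stands for an unrelated seed.
miR-291a-3p: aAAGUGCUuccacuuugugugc
miR-294-3p: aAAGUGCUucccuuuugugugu
miR-295-3p: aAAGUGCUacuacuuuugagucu
miR-302b-3p: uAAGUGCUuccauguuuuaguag
miR-302d-3p: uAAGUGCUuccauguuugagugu
miR-17-5p: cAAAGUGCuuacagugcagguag
let-7a-5p: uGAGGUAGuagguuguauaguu

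An ESCC site is the sequence AGCACTTA (8mer), or its first 7 bases AGCACTT or its last 7 bases (either a 7mer). Sites were searched on the transcript strand of annotated 3′ UTRs, and let-7 sites were classed in the same way. The 8mer was present in 392 of 11673 protein-coding genes tested with a 3′ UTR (3.36%). Sites of 5 genes that recur below are given as GRCm38 stretches of 30 bases with the match in capitals, and the coordinates are those of the whole stretch, for the G1-S inhibitors Lats2, Rbl2 and Cdkn1a and for Lefty1 and Cdk6, which were called higher. A match describes the sequence and does not show that the site is used.
Lats2: ttagtacagtatggaaagAGCACTTAtttt
Rbl2: atgtgtatttttcaataaAGCACTTAtaaa
Cdkn1a: gaataccgtgggtgtcaaAGCACTTAgtgg
Lefty1: tcactgcactgtatgcgaAGCACTTAcatg
Cdk6: aagtcatcccgcacattcAGCACTTAtgga
The Lats2 stretch lies at chr14:57691082-57691111 on the minus strand. The Rbl2 stretch lies at chr8:91123812-91123841 on the plus strand. The Cdkn1a stretch lies at chr17:29100482-29100511 on the plus strand. The Lefty1 stretch lies at chr1:180938195-180938224 on the plus strand. The Cdk6 stretch lies at chr5:3525313-3525342 on the plus strand. Cdk6 held a further 8mer, not printed, in the stretch at chr5:3528415-3528444.

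Monosome libraries were the smallest of the series. Their totals ran from 1151649 to 1578231 counts for WT and from 1707918 to 2436888 for KO cells, and the ranges did not overlap. Spearman correlations over 12851 genes were 0.969 to 0.981 within a genotype and 0.901 to 0.913 between genotypes, and counts of no pair of replicates agreed within sampling noise. The libraries carried the markers of naive ESCs: the summed level of 24 pluripotency genes was 6253 to 6556 CPM in WT and 7013 to 7063 CPM in KO libraries, where CPM is the count over the TMM-scaled library size. Fibroblast feeder genes summed to 34.5 to 44.9 and 48.9 to 64.6 CPM, with Dcn at 0 in every monosome library. One polysome library stood furthest apart, the KO low polysome library of gradient 1. It held 1382 reads of the embryonic globin gene Hbb-y, where the other KO low polysome libraries held 26 and 27, and 502 reads of H19, where the other KO low polysome libraries held 13 and 24. No monosome library showed this, but comparisons with low polysomes are given without that library where it matters.

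Of 12851 genes tested, 2320 (18.1%) differed between KO and WT monosomes, 1083 higher (8.43%) and 1237 lower (9.63%) in KO cells. Called means that limma-voom gave an adjusted p under 0.05 together with a log2 change beyond 1 in either direction, and all adjusted p-values are limma's, over all genes tested. The median change was -0.05 (log2, KO over WT), and it lay 0.105 higher when libraries were scaled by their totals. The called genes moved by a median of 1.60 upwards and -1.60 downwards, and 330 of the higher and 368 of the lower genes changed by over 2 on the log2 scale. The 3 KO and 3 WT libraries did not overlap for 1068 of the higher and 1186 of the lower genes. Called genes were picked for a difference between these libraries, so this count is not separate support for the calls. WT libraries held 3 counts or fewer of 161 of the higher genes, and KO libraries of 139 of the lower genes, so that the size of these changes is poorly known. With every monosome library thinned to the smallest total, 2129 genes were called, 1014 higher and 1115 lower. The balance of directions depends on the scaling: with total counts, 1274 were higher and 1061 lower.

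**Figure D1:**
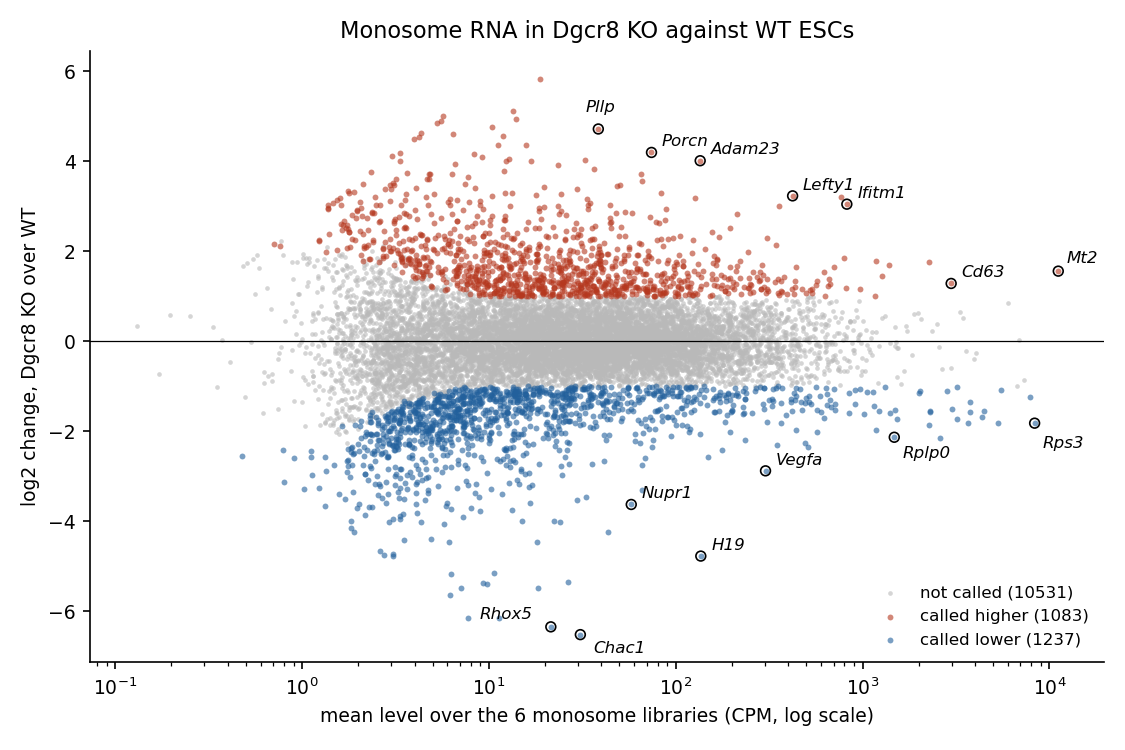
Log2 change of each of 12851 genes (vertical axis, Dgcr8 KO over WT in monosomes) against its mean level over the 6 monosome libraries (horizontal axis, CPM, log scale). Red points are the 1083 genes called higher and blue points the 1237 called lower. Labelled genes include Pllp at 4.72 and Chac1 at -6.52, and the ribosomal protein gene Rps3 lies at the right edge at -1.82.

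The targeted gene kept reads in KO cells. Dgcr8 (ENSMUSG00000022718, chromosome 16, 18253948 to 18289246) held 76.3, 68.4 and 79.6 CPM in the WT and 47.3, 52.0 and 51.3 CPM in the KO libraries. The KO libraries lay below all WT libraries (log2 change -0.56, SE 0.19, adjusted p = 0.0185), but the change was under the fold threshold. Reads come from the 3′ end of the message, which need not hold the deleted part, so this value does not check the genotype. Ddx6 (ENSMUSG00000032097, chromosome 9, 44604892 to 44640731), which codes for an RNA helicase that acts in microRNA-guided repression, held 176, 194 and 181 CPM in the WT and 166, 187 and 167 CPM in the KO libraries. The groups overlapped, and no change was detected (log2 change -0.09, SE 0.12, adjusted p = 0.599).

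Genes named for the size of their change or for abundance were picked among those whose groups did not overlap and whose symbol was not a Gm or Rik placeholder. For them the separation of the groups is a condition of the choice. Within this choice, the called genes with a mean of 50 or more counts and the largest increases were at low levels in WT monosomes. Porcn (ENSMUSG00000031169, chromosome X, 8193848 to 8206525), whose product attaches a lipid to Wnt ligands so that they can be secreted, held 8.04, 13.6 and 2.65 CPM in the WT and 123, 151 and 147 CPM in the KO libraries (log2 change 4.20, SE 0.38, adjusted p = 1.22e-11). All KO libraries stood well above the highest WT library. Adam23 (ENSMUSG00000025964, chromosome 1, 63445891 to 63596276), a membrane protein of the ADAM family, held 14.7, 19.4 and 11.5 CPM in the WT and 301, 223 and 242 CPM in the KO libraries (log2 change 4.02, SE 0.28, adjusted p = 1.22e-14). Pllp (ENSMUSG00000031775, chromosome 8, 94674894 to 94696278), the membrane protein plasmolipin, had the largest log2 change in this group, 4.72, but with only 3, 9 and 1 reads in the WT and 104, 217 and 205 reads in the KO libraries its SE was 0.60. The transcription factor gene Foxd1 rose from 2.63 ± 0.609 to 44.2 ± 7.65 CPM (mean ± SD, n = 3). Smyd1, which codes for a muscle methyltransferase, rose from 3.50 ± 1.44 to 61.6 ± 8.55 CPM, and Dok2, which codes for a docking protein of tyrosine kinase signalling, from 10.0 ± 0.585 to 123 ± 23.6 CPM (n = 3). Cds1, an enzyme of phospholipid synthesis, and Igfbpl1, an insulin-like growth factor binding protein relative, had log2 changes of 3.47 and 3.46. The other 2 genes in this group were Pmaip1 and Mir294, which are taken up below.

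Among the 5 most abundant called RNAs on the higher side, with placeholder symbols left out, were both metallothioneins. Mt2 (ENSMUSG00000031762, chromosome 8, 94172664 to 94173568), which codes for a small metal-binding protein, held 5600.1, 5228 and 6144 CPM in the WT and 16443, 16227 and 17269 CPM in the KO libraries (log2 change 1.56, SE 0.10, adjusted p = 7.74e-16), and Mt1 (ENSMUSG00000031765, chromosome 8, 94179082 to 94180327) held 1045, 932 and 1102 CPM in the WT and 3050.2, 3853 and 3562 CPM in the KO libraries (log2 change 1.77, SE 0.12, adjusted p = 1.49e-15). Both genes were higher in every KO library than in any WT library, and their reads are uncertain where the related copies share sequence. Cd63, which codes for a tetraspanin of late endosomes, rose from 1732 ± 173 to 4226 ± 218 CPM. Wfdc2, which codes for a secreted protease inhibitor, rose from 652 ± 35.8 to 2103 ± 191 CPM, and the heparin-binding growth factor gene Mdk from 682 ± 102 to 1863 ± 213 CPM (n = 3 each).

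The next genes were picked among called genes with a mean of 50 or more counts, with placeholder symbols left out. The largest decreases there were of H19 and of several genes that cells switch on under amino acid or endoplasmic reticulum stress. H19 (ENSMUSG00000000031, chromosome 7, 142575529 to 142578143), an imprinted noncoding RNA that is also the host of a microRNA, held 231, 288 and 269 CPM in the WT and 10.0, 13.2 and 6.27 CPM in the KO libraries (log2 change -4.77, SE 0.62, adjusted p = 6.38e-08). No KO library came near the lowest WT library. Vegfa (ENSMUSG00000023951, chromosome 17, 46016993 to 46032369), the vascular endothelial growth factor, held 522, 452 and 622 CPM in the WT and 86.7, 67.2 and 64.2 CPM in the KO libraries (log2 change -2.88, SE 0.15, adjusted p = 1.95e-18). Nupr1 (ENSMUSG00000030717, chromosome 7, 126623249 to 126630861), a small chromatin protein induced by stress, held 99.8, 81.3 and 141 CPM in the WT and 6.67, 8.15 and 9.40 CPM in the KO libraries (log2 change -3.63, SE 0.28, adjusted p = 1.38e-13). For both genes the groups were far apart. Trib3, a pseudokinase that restrains the stress response, fell from 115 ± 6.71 to 16.6 ± 3.55 CPM, and Psat1 and Mthfd2, enzymes of serine and mitochondrial folate metabolism, fell from 255 ± 28.5 to 43.3 ± 7.53 CPM and from 297 ± 33.1 to 56.3 ± 12.8 CPM (n = 3 each). The remaining named genes of this group were Ly6g6e, Rasgrp2, Slc41a3 and Fmr1nb, with log2 changes of -3.30, -2.72, -2.65 and -2.59.

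**Figure D2:**
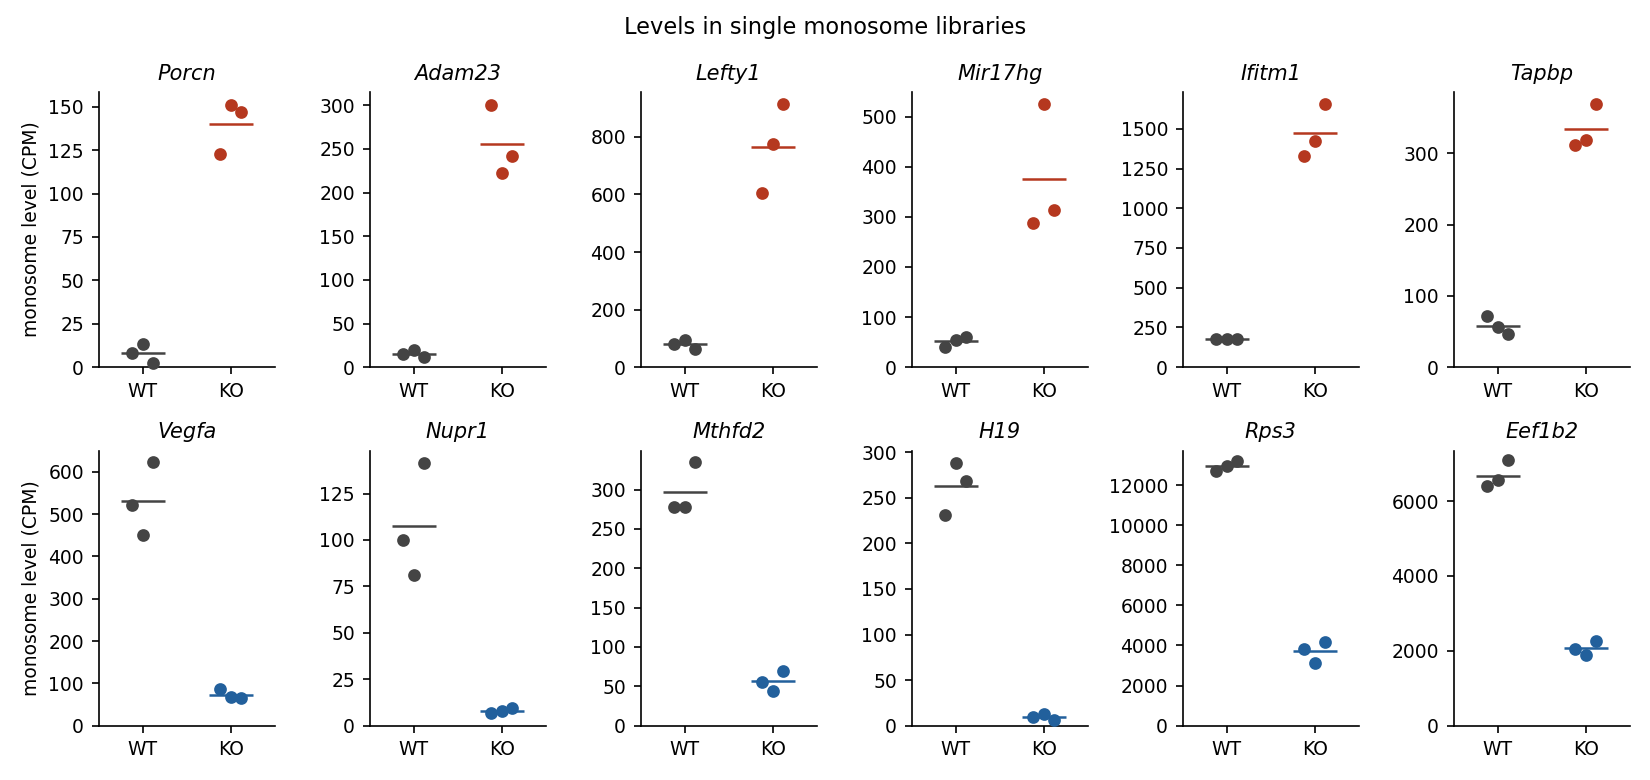
Monosome levels (CPM, linear axes from 0) of 12 named genes in each of the 3 WT (grey) and 3 KO (coloured) libraries, with the mean of each group as a line. In every panel the 3 KO libraries lie apart from the 3 WT libraries, as for Ifitm1 at 179, 176 and 175 CPM in WT and 1329.7, 1425 and 1657 CPM in KO libraries. Genes named for the size of their change or for abundance had to have groups that did not overlap. Their separation is therefore a condition of the choice.

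Messages of the translation machinery were lower in KO monosomes. Of the 83 cytosolic ribosomal protein genes tested, 56 were called lower and 1 higher, and the median log2 change was -1.17, against -0.05 for all genes. Large and small subunit genes had 35 of 50 and 21 of 31 called lower and medians of -1.20 and -1.17. The gene called higher was Rpl10l, a retrogene copy of Rpl10 (log2 change 1.35). Ribosomal protein genes made up 10.7, 10.5 and 11.5% of the counts in the WT monosome libraries and 4.21, 4.21 and 4.69% in the KO libraries. Every KO share was under the lowest WT share, with means of 10.9 ± 0.497% and 4.37 ± 0.279% (SD, n = 3, exact two-sided permutation p = 0.1, the smallest that 3 against 3 can give, and 0.25 adjusted over 5 gene classes). Rps3 (ENSMUSG00000030744, chromosome 7, 99477896 to 99483738) held 12699, 12973 and 13220.0 CPM in the WT and 3826, 3122 and 4156 CPM in the KO libraries (log2 change -1.82, SE 0.11, adjusted p = 2.12e-16). Rps20 fell from 8264 ± 488 to 2352 ± 229.9 CPM, Rps19 from 4250.4 ± 116 to 967 ± 155 CPM and Rplp0 from 2406 ± 75.9 to 549 ± 24.7 CPM (n = 3 each). Genes near 0 on the same list included Rps13 (log2 change -0.12) and Rpl5 (-0.21), neither of which was called. With libraries scaled by their totals, 48 ribosomal protein genes were called lower, with a median of -1.06.

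Other messages that begin with a terminal oligopyrimidine tract, the 5′ feature through which growth signals set their translation, were also lower. Of 17 tested, 14 were called lower and 0 higher (median -1.22), or 11 lower with total counts. The elongation factor gene Eef1b2 (ENSMUSG00000025967, chromosome 1, 63176825 to 63180486) held 6396, 6551 and 7092 CPM in the WT and 2056, 1881 and 2270.1 CPM in the KO libraries (log2 change -1.69, SE 0.11, adjusted p = 7.74e-16). Eef2 fell from 6648 ± 464 to 2256 ± 103 CPM, the ribosome scaffold gene Rack1 from 11024 ± 585 to 4654 ± 353 CPM, and the poly(A)-binding protein gene Pabpc1 from 7509 ± 526 to 3547 ± 467 CPM (n = 3 each). SnoRNA host genes, noncoding transcripts that often start with the same tract and carry small nucleolar RNAs in their introns, were in part lower: 0 of 17 genes tested were called higher and 7 lower (median -0.92). Snhg8 fell from 853 ± 44.7 to 167 ± 17.6 CPM, Snhg6 from 817 ± 108 to 169.7 ± 14.2 CPM and Gas5 from 2218 ± 217 to 764 ± 107 CPM (n = 3 each). Processed pseudogenes, most of which are silent copies of abundant messages, made up 148 of the 1237 genes called lower. They made up 5 of the 1083 genes called higher (Gm13034, Gm21939, Gm4971, Gm6494 and Gm8738). The median log2 change of the processed pseudogenes tested was -1.21, against -0.05 for all genes. Of 52 ribosomal protein pseudogenes, 39 were called lower. Only unique alignments were kept, so reads that fit a ribosomal protein gene and a pseudogene equally well were not counted. The values of single genes of this family are therefore uncertain. For genes of the mitochondrial ribosome, 0 of 77 genes tested were called higher and 1 lower (Mrps31, median -0.33), though 39 had an unadjusted p under 0.05 in limma.

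**Figure D3:**
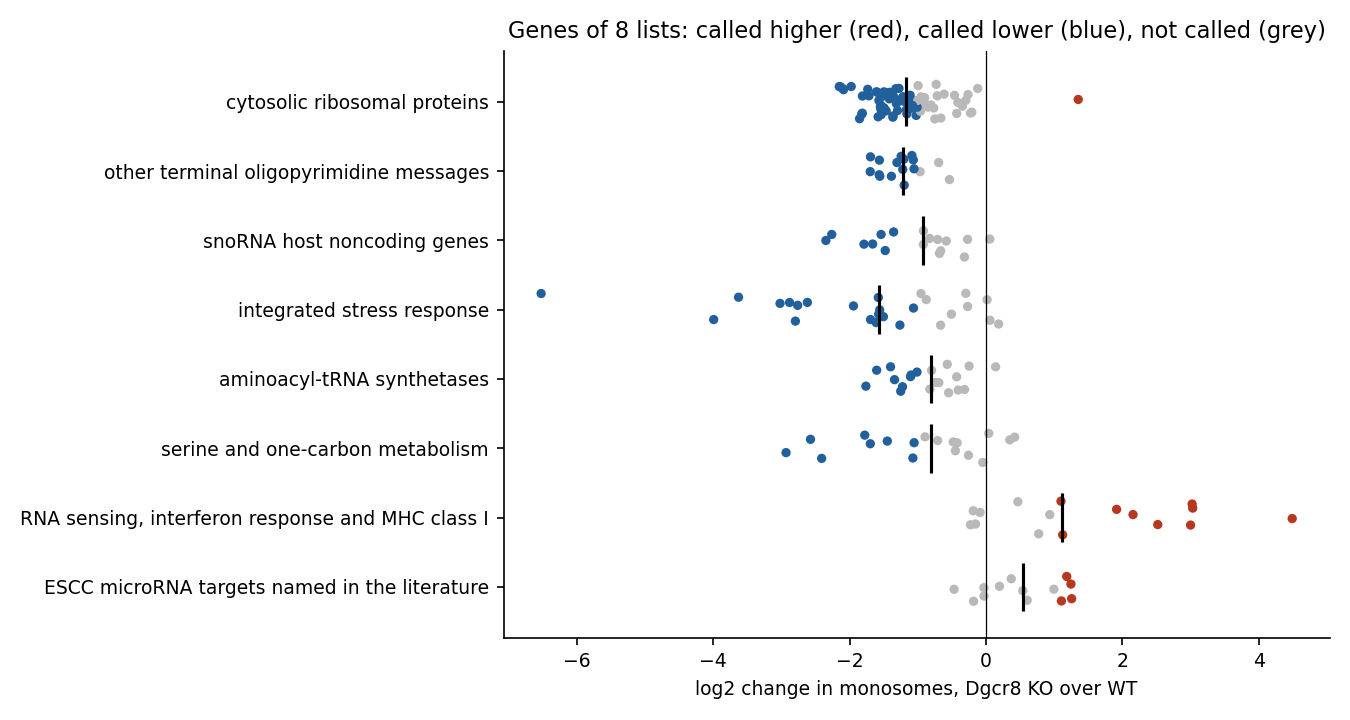
Log2 change in monosomes (horizontal axis, Dgcr8 KO over WT) of each gene in 8 lists (rows), with the list's median as a black bar and points spread vertically only to separate them. Of the ribosomal protein genes 82 of 83, and of the other oligopyrimidine messages 17 of 17, lie below 0, with medians of -1.17 and -1.22, and of the RNA sensing and MHC class I genes 12 of 16 lie above it, with a median of 1.11.

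Genes of the integrated stress response, in which the transcription factor ATF4 turns on amino acid supply when translation initiation is restrained, were lower in KO monosomes. Of 26 tested, 17 were called lower and 0 higher (median -1.57, or -1.53 with the gene at 0 in 1 group set to its bound). Chac1 (ENSMUSG00000027313, chromosome 2, 119351229 to 119354381), which degrades glutathione, held 76, 87 and 86 reads in the WT and 1, 0 and 4 reads in the KO libraries (log2 change -6.52, SE 0.76, adjusted p = 5.14e-09). KO libraries were at or near 0. Fgf21, a stress hormone, was at 0 in every KO library and so at least 2.18-fold lower, against a floor of 3 counts per library. Atf3, Stc2, Ddit4, Slc7a5 and Asns, targets of the pathway, had log2 changes of -2.79, -2.62, -1.58, -1.56 and -1.26. Atf4 itself (ENSMUSG00000042406, chromosome 15, 80255184 to 80257541) held 913, 959 and 984 CPM in the WT and 400.2, 537 and 436 CPM in the KO libraries (log2 change -1.06, SE 0.11, adjusted p = 6.16e-10). Sesn2, Ppp1r15a and Atf5 had log2 changes of 0.02, 0.06 and 0.19 and were not called, and Ddit3, at -0.95 (adjusted p = 2.63e-04), missed only the fold threshold. The aminoacyl-tRNA synthetases, which charge tRNAs and are partly under ATF4, went the same way, with 9 of 20 called lower and 0 higher (median -0.81). Cars fell from 131 ± 12.7 to 38.1 ± 0.409 CPM, Tars from 349 ± 22.9 to 116 ± 14.3 CPM and Nars from 422 ± 23.6 to 160.5 ± 16.5 CPM (n = 3 each), while Dars (log2 change 0.14) was not called. For serine and one-carbon enzymes, 0 of 18 genes tested were called higher and 8 lower (median -0.80). Phgdh, the first enzyme of serine synthesis, fell from 17 ± 4.50 to 2.42 ± 1.42 CPM (n = 3), next to Psat1 and Mthfd2 above, and Gldc, Ahcy, Shmt2 and Psph had log2 changes of -1.78, -1.45, -1.07 and -1.05. Messages with regulatory upstream reading frames, several of which are stress genes, gave 2 called lower of 18 (Cebpb and Atf4) and 0 higher (median -0.26). The 11.1% called lower lay near the 9.63% of all genes.

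Among 17 genes of microRNA biogenesis and silencing, 1 was called higher and 1 lower (5.88% each way, near the 8.43% and 9.63% of all genes), and these were the paralogs Lin28b and Lin28a, whose products block the maturation of let-7. Lin28a (ENSMUSG00000050966, chromosome 4, 134003330 to 134018841) held 72, 65 and 41 reads in the WT and 5, 9 and 4 reads in the KO libraries (log2 change -3.99, SE 0.51, adjusted p = 4.80e-08). Lin28b (ENSMUSG00000063804, chromosome 10, 45376620 to 45486395) held 4, 4 and 8 reads in the WT and 26, 58 and 40 reads in the KO libraries (log2 change 2.20, SE 0.43, adjusted p = 7.77e-05). The paralogs thus went opposite ways, and the groups did not overlap for either. Dicer1, Drosha and the Argonaute gene Ago2 had log2 changes of 0.10, 0.60 and -0.88, and none was called. Primary transcripts of microRNA clusters are the direct substrates of DGCR8. Mir17hg (ENSMUSG00000089726, chromosome 14, 115042879 to 115046727), the host of the miR-17 to miR-92a cluster, held 40.2, 54.9 and 60.1 CPM in the WT and 289, 525 and 314 CPM in the KO libraries (log2 change 2.84, SE 0.23, adjusted p = 3.06e-13). Mir294 (ENSMUSG00000077903, chromosome 7, 3220641 to 3220724), annotated as a hairpin of the miR-290 cluster, held 13.4, 6.45 and 7.07 CPM in the WT and 81.2, 136 and 145 CPM in the KO libraries (log2 change 3.73, SE 0.36, adjusted p = 4.60e-11). For both transcripts every KO library was far above the highest WT library. Mir294 was named for the size of its change, and of 19 genes annotated as microRNAs 3 were called higher (Mir294, Mir295 and Mir29a) and 6 lower, with a median of -0.79. Over the whole list of primary and host transcripts, 1 of 11 genes tested were called higher and 1 lower (9.09% each way, near the shares of all genes, median 0.51). The lower one was H19, and Meg3, Mirg and Rian, noncoding RNAs of an imprinted microRNA cluster, had log2 changes of 0.66, 0.61 and -0.34 with no call.

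Targets of the ESCC family were more often called higher than lower in KO monosomes. Of 13 targets named in the literature, 4 were called higher and 0 lower (median 0.54). Lats2 (ENSMUSG00000021959, chromosome 14, 57689662 to 57758388), a kinase that slows the entry into S phase and whose site is shown above, held 20.8, 15.5 and 16.8 CPM in the WT and 49.5, 45.8 and 35.3 CPM in the KO libraries (log2 change 1.26, SE 0.25, adjusted p = 1.26e-04). Rbl2 (ENSMUSG00000031666, chromosome 8, 91070057 to 91123844), a relative of the retinoblastoma protein, held 8.04, 5.81 and 9.73 CPM in the WT and 18.3, 19.4 and 17.6 CPM in the KO libraries (log2 change 1.25, SE 0.33, adjusted p = 0.00285). For both genes every KO library was higher than every WT library. Ccnd1 rose from 151 ± 4.44 to 344 ± 8.95 CPM and Ei24 from 235 ± 26.2 to 503 ± 19.2 CPM (n = 3 each), while Cdkn1a, a classic target with an 8mer, had a log2 change of 0.60 and was not called. Across the transcriptome, 47 of 392 genes with an 8mer (12%) were called higher and 14 (3.57%) lower, with a median change of 0.19. Genes with a 7mer had 9.54% higher and 4.50% lower calls among 1866 (median 0.08), and genes with neither had 8.44% and 8.91% among 9415 (median -0.05). The 3′ UTR was longer in genes with an 8mer (median 2736 bases) than in genes without a site (803 bases). Among genes with a 3′ UTR of 417 to 2067 bases, the medians were 0.19 for 133 genes with an 8mer and -0.04 for 4944 without a site. For the let-7 seed, 8.87% of 406 genes with an 8mer were called higher and 7.39% lower (median 0.06). Genes with a let-7 7mer had 9.70% and 5.62% (median 0.07), close to the values of the ESCC 7mer, and genes without a let-7 site 8.59% and 8.40% (median -0.04). Within the middle range of 3′ UTR lengths, higher and lower calls were 15.8% and 4.51% with an ESCC 8mer and 10.4% and 3.93% with an ESCC 7mer, against 7.14% and 9.09% with a let-7 8mer and 11.7% and 7.18% with a let-7 7mer. The 8mer genes with the largest increases were Lefty1, Tmem64, Lamp2, Cdk6 and Atp7a. Lefty1 (ENSMUSG00000038793, chromosome 1, 180935022 to 180938400), a secreted inhibitor of Nodal signalling, held 81.7, 93.6 and 64.5 CPM in the WT and 606, 774 and 914 CPM in the KO libraries (log2 change 3.23, SE 0.20, adjusted p = 2.98e-16). Lamp2, which codes for a lysosomal membrane protein, rose from 126 ± 9.26 to 558 ± 15.5 CPM and the copper transporter gene Atp7a from 18.8 ± 5.26 to 59.5 ± 7.96 CPM (n = 3 each). In polysomes, the median change of the 392 8mer genes was 0.35 (low) and 0.41 (high), against -0.01 and -0.11 for genes without a site.

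Cell identity genes were called in both directions. The share of genes called over all genes, 18.1%, is the background for their counts. Of 24 pluripotency genes, 1 was called higher (Klf2) and 2 lower (Dppa3 and Tcl1), with a median of -0.05. In limma, 14 of them had an unadjusted p under 0.05. Nanog, Sox2, Esrrb and Pou5f1, core factors of the ESC state, had log2 changes of 0.25, 0.38, 0.38 and 0.36 and were not called. Dppa3, a maternal and naive pluripotency gene, fell from 38.9 ± 3.33 to 9.53 ± 1.80 CPM, and Klf2 rose from 346 ± 59.5 to 723 ± 124 CPM (n = 3 each). For formative epiblast and germ layer genes, 2 of 14 genes tested were called higher and 3 lower (median 0.08). Besides Foxd1 and Lefty1, which rose, the POU factor gene Pou3f1 fell from 13.5 ± 0.624 to 1.73 ± 0.194 CPM and the neural genes Sox1 and Nes had log2 changes of -1.39 and -1.18. Otx2 (0.02) was not called, and Fgf5 had at most 1 read in a monosome library. Endoderm genes gave 1 higher and 3 lower calls among 11, trophoblast genes 0 and 0 among 3 (limma, edgeR and DESeq2 alike, and 0 at an unadjusted p under 0.05), and feeder genes 1 and 1 among 5 (medians -0.15, -0.07 and -0.47). The lower endoderm genes were Lama1, Col4a1 and Lamb1, components of the basement membrane, with log2 changes of -2.47, -1.48 and -1.23, and the higher one, Amn, held 0, 1 and 0 reads in the WT and 3, 8 and 5 reads in the KO libraries. Among the defining markers, Gata4, Gata6, Sox17, Sox7, Cdx2, Elf5 and Hand1 had 4 reads or fewer in each monosome library. The feeder genes called were Col1a1, with 9, 6 and 3 reads in the WT and 1, 1 and 1 reads in the KO libraries, and Fbln1, which rose from 21.9 ± 5.94 to 47.3 ± 5.47 CPM (n = 3). In bulk RNA, fewer cells of a type and less RNA per cell cannot be told apart.

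Signalling genes of the Nodal, FGF and Wnt pathways had 6 of 24 called higher and 1 lower (median 0.25). The inhibitors of differentiation Id2 and Id3 rose from 42.1 ± 0.671 to 205 ± 16.6 CPM and from 30.8 ± 6.75 to 151 ± 22.5 CPM, and the Wnt target genes Sp5 and Lef1 had log2 changes of 2.27 and 2.05. Spry1, a feedback inhibitor of FGF signalling, fell, with 9, 6 and 4 reads in the WT and 0, 2 and 4 reads in the KO libraries, which overlap. For epithelial and mesenchymal genes, 5 of 17 genes tested were called higher and 1 lower (median 0.42). Snai1, a repressor of E-cadherin, held 3, 0 and 1 reads in the WT and 39, 65 and 56 reads in the KO libraries, a ratio of 24.1-fold (95% exact counting interval 9.23 to 89.5) that covers counting error only. Vim rose from 69.8 ± 4.97 to 211 ± 29.3 CPM and the tight junction gene Cldn3 from 22 ± 6.47 to 72.0 ± 12.4 CPM, while Krt18 fell from 11.9 ± 1.11 to 2.88 ± 0.992 CPM (n = 3 each), and Cdh2 and Epcam, the mesenchymal N-cadherin and an epithelial adhesion molecule, had log2 changes of 2.83 and 1.05. Genes of both states rose. Annexins and S100 proteins, calcium-binding membrane adaptors, gave 5 higher and 2 lower calls among 13 (median 0.28). Anxa3 held 2, 0 and 0 reads in the WT and 68, 130 and 60 reads in the KO libraries, a ratio of 77.7-fold (95% exact counting interval 21.3 to 645). Anxa2 rose from 29.9 ± 11.7 to 136 ± 11.6 CPM and Anxa6 fell from 25.9 ± 4.11 to 4.63 ± 2.44 CPM (n = 3 each). The other called members were S100a6 (1.06), S100a11 (1.01), Anxa4 (1.10) and Anxa8 (-2.44, log2).

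Genes of RNA sensing, the interferon response and MHC class I were higher, with 9 of 16 called higher and 0 lower (median 1.11). Tapbp (ENSMUSG00000024308, chromosome 17, 33915899 to 33929292), which loads peptides onto MHC class I, held 71.7, 56.1 and 46.0 CPM in the WT and 312, 319 and 369.8 CPM in the KO libraries (log2 change 2.52, SE 0.17, adjusted p = 3.38e-15). Tap2, a subunit of the peptide transporter, rose from 7.04 ± 1.70 to 60.5 ± 11.9 CPM, and Ddx58, which codes for the RNA sensor RIG-I, from 4.89 ± 1.47 to 41.7 ± 2.91 CPM (n = 3 each). The immunoproteasome subunit gene Psmb8 was at 0 in all WT libraries and held 12, 18 and 26 reads in the KO libraries, at least 2.997-fold higher, against a floor of 3 counts per library. Psmb9 held 0, 5 and 2 reads in the WT and 18, 31 and 26 reads in the KO libraries. B2m, the light chain of MHC class I, had a log2 change of 1.92. The MHC genes H2-K1 (-0.15) and H2-D1 (0.77), and Irf3 (-0.09) were not called. Psmb8 and Psmb9 were also the only higher calls among 38 proteasome subunits, where 1 gene was called lower (Psmc4) and the median was -0.33.

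Among 23 p53 targets and apoptosis genes, 3 were called higher and 0 lower (median 0.24). Pmaip1 (ENSMUSG00000024521, chromosome 18, 66458533 to 66465565), which codes for the death-promoting protein NOXA, held 5.36, 3.23 and 5.30 CPM in the WT and 65, 69.9 and 70.5 CPM in the KO libraries (log2 change 3.84, SE 0.43, adjusted p = 2.51e-09). Bak1, another death effector, and Perp, a junction protein, had log2 changes of 1.56 and 1.68, whereas Mdm2 (-0.28), Bax (0.24) and Trp53 (-0.21) were not called. Of 26 G1-S regulators, 6 were called higher and 1 lower (23.1% and 3.85%, median 0.17). Besides Ccnd1, Lats2 and Rbl2, these were Ccnd2, a D-type cyclin, which rose from 9.86 ± 2.22 to 37.7 ± 6.28 CPM, its kinase partner Cdk6, from 22.7 ± 5.03 to 82.8 ± 10.1 CPM, and the kinase inhibitor gene Cdkn2b, with 2, 0 and 0 reads in the WT and 5, 7 and 10 reads in the KO libraries. The Myc family gene Mycl fell from 22.3 ± 4.45 to 4.88 ± 2.51 CPM (n = 3 each). Replication-dependent histone genes, made in S phase, gave 2 higher calls (Hist1h2af and Hist1h2an) and 1 lower call (Hist1h1b) among 32 (6.25% and 3.1%, both under the shares of all genes, median 0.04). Their near-identical copies share sequence, and most of their messages end without a poly(A) tail, so single values are uncertain.

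Germline genes that DNA methylation silences were lower in KO monosomes, with 10 of 17 called lower and 0 higher (median -1.55). Rhox5 (ENSMUSG00000095180, chromosome X, 37804842 to 37808876), a homeobox gene of the X chromosome, held 71, 55 and 49 reads in the WT and 0, 0 and 6 reads in the KO libraries (log2 change -6.35, SE 0.73, adjusted p = 4.17e-09). Xlr3a, which has near-identical copies, had 22, 22 and 20 reads in the WT and 0, 0 and 0 reads in the KO libraries and was at least 9.32-fold lower. Dazl, Sycp3 and Stk31 had log2 changes of -1.89, -1.58 and -1.81. Ddx4 (1.74) and Tex11 (1.56) pointed upwards without a call. Imprinted genes had 8 lower and 0 higher calls among 28 (median -0.46). Igf2, the neighbour of H19, fell from 33.1 ± 8.06 to 7.98 ± 1.56 CPM, and Peg10 held 14, 12 and 6 reads in the WT and 2, 2 and 1 reads in the KO libraries, a ratio of 10.6-fold (95% exact counting interval 4.11 to 34.9). Gnas and Peg3 had log2 changes of -1.57 and -1.28, and Igf2r and Mest (0.11 and 0.83) were not called. None of the 9 DNA methylation and demethylation enzymes was called by limma, edgeR or DESeq2 (median -0.30), though 5 had an unadjusted p under 0.05 in limma, and the extremes were Uhrf1 (-0.99) and Tet2 (0.52). Of 13 nuclear and stem cell noncoding RNAs, 2 were called lower (H19 and Lncenc1), and Malat1 (0.85) was not (median -0.09).

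In glycolysis, 1 of 21 genes tested were called higher and 3 lower (4.76% and 14.3%, against 8.43% and 9.63% of all genes, median -0.34). Aldoa (ENSMUSG00000030695, chromosome 7, 126795234 to 126800751), the aldolase of the pathway, held 712, 677 and 724 CPM in the WT and 192, 177 and 169 CPM in the KO libraries (log2 change -1.98, SE 0.12, adjusted p = 3.00e-16). Pfkp and Gpi1 had log2 changes of -1.82 and -1.10, and Pdk1, the kinase that holds pyruvate back from the mitochondrion, rose from 30.2 ± 4.97 to 107 ± 2.85 CPM (n = 3). In cholesterol synthesis and uptake, 1 of 22 genes tested were called higher and 4 lower (4.55% and 18.2%, median -0.51). The sterol isomerase gene Ebp rose from 103 ± 19.5 to 513 ± 86.8 CPM (n = 3), while Mvd, Lss and Msmo1 had log2 changes of -1.64, -1.30 and -1.29, and Fdps was just beyond the threshold. Of 7 mitochondrially encoded messages, mt-Nd6 was called lower (log2 change -1.04), and the median was -0.38. Their share of the counts was 1.99, 1.92 and 1.77% in WT and 1.79, 1.39 and 1.54% in KO libraries, which overlap. Of 72 nuclear-encoded respiratory chain subunits, 1 was called lower (Uqcrfs1) and 0 higher (median -0.10), though 43 had an unadjusted p under 0.05 in limma.

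**Figure D4:**
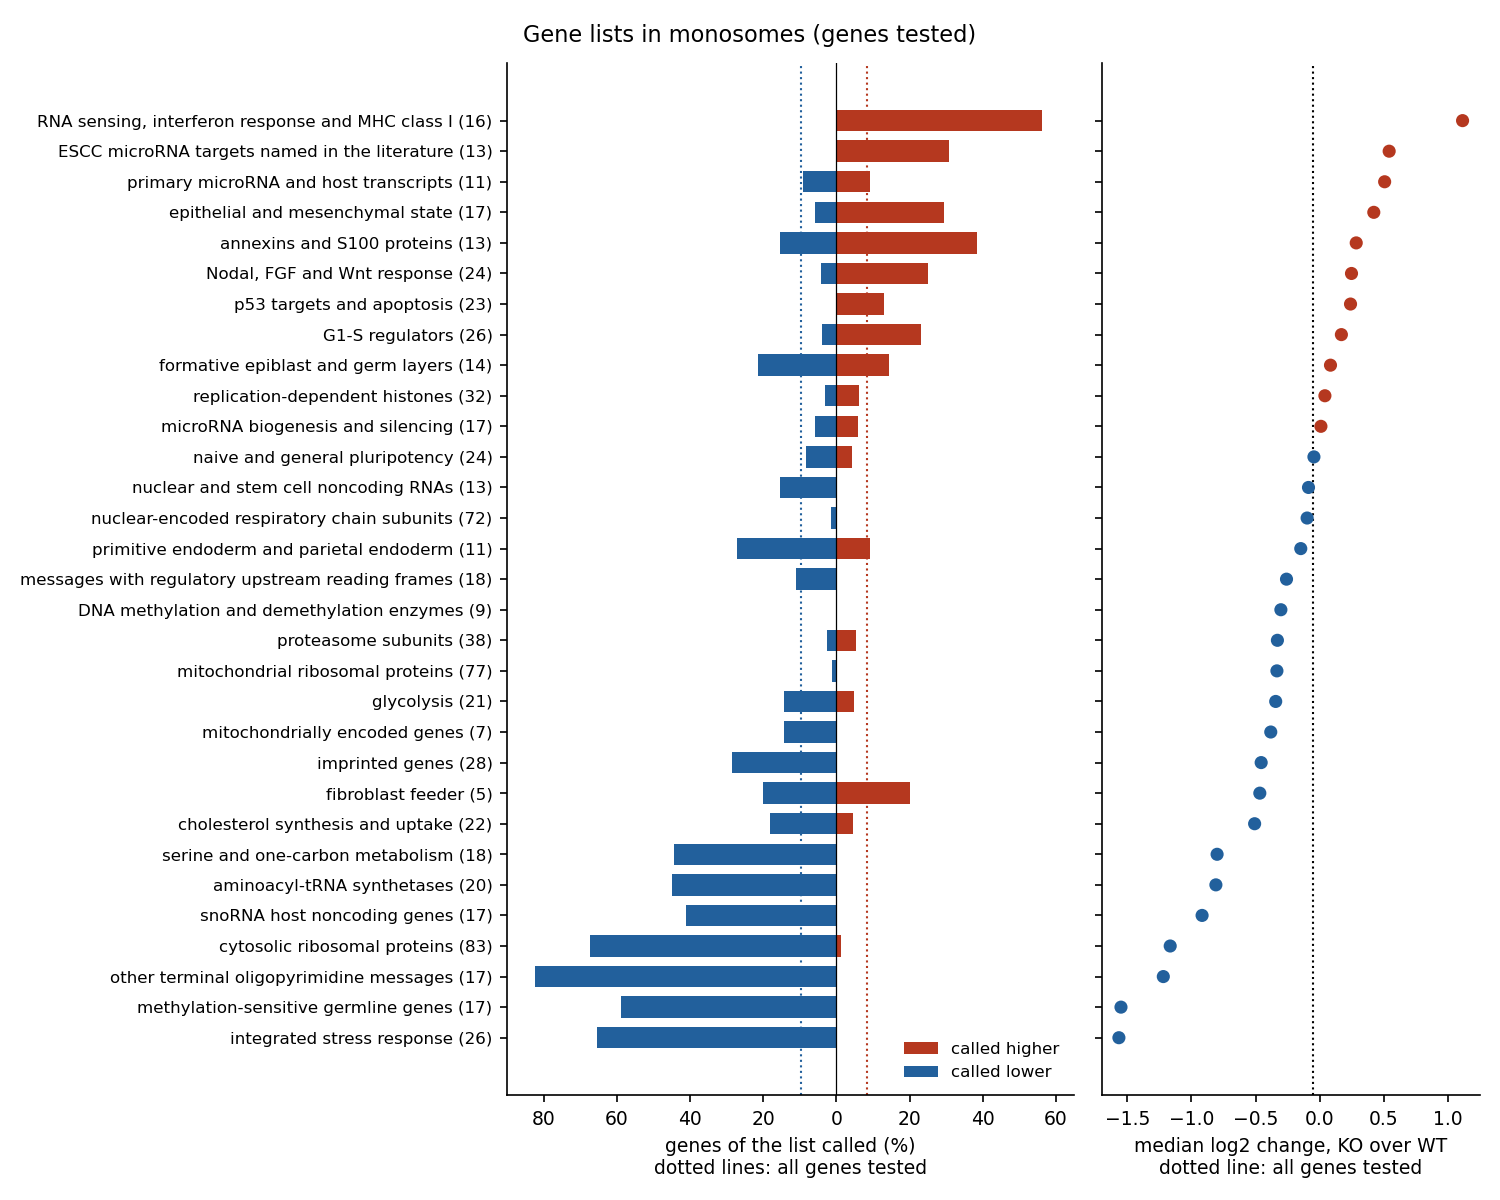
Left, percentage of the tested genes of each list (number tested in brackets) that were called higher (red, to the right) or lower (blue, to the left) in KO monosomes, with dotted lines at 8.43% and 9.63% for all genes. Right, median log2 change of each list, with a dotted line at -0.05 for all genes. The trophoblast list, with 3 genes tested, is not drawn. The largest share called lower was 82.4%, of the other oligopyrimidine messages, and the largest called higher 56.2%, of the RNA sensing and MHC class I genes.

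Kinds of transcript differed. Of 11766 protein-coding genes, 8.75% were called higher and 8.06% lower (median -0.03), against 5.87% and 22.5% of 494 lncRNA genes (median -0.35). The share of all lncRNA counts was 2.65, 2.96 and 2.99% in WT and 2.37, 3.29 and 2.43% in KO libraries, so that the total overlapped between groups. Protein-coding genes made up 93.6, 93.2 and 93.3% and 94.8, 94.2 and 94.9% of the counts (exact permutation p = 0.1, 0.25 adjusted over 5 classes), a difference of 1.28 percentage points that came to 0.205 when protein-coding and lncRNA counts without mitochondrially encoded genes formed the total. Histone genes made up 0.0841, 0.0651 and 0.0821% and 0.0795, 0.0645 and 0.0822%. By coding length, the median log2 change was -0.08 in the quintile of genes with the shortest coding sequences (median 525 bases) and 0.01 in the quintile with the longest (3405 bases). The same groups had medians of -0.95 and 0.58 in high polysomes. The shortest quintile still held more lower calls, 12% against 5.82% in the longest. By 3′ UTR length, the share of lower calls went from 12.4% in the shortest quintile to 5.01% in the longest, and the median from -0.16 to 0.09.

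To see where the change depended on the fraction, the KO to WT change in monosomes was tested against that in polysomes. Higher here means a larger signed change in monosomes, which also holds where a gene fell more in polysomes. The monosome change differed from the low polysome change for 647 genes (5.03%), 489 higher (3.81%) and 158 lower (1.23%) in monosomes. It differed from the high polysome change for 1940 genes (15.1%), 1132 higher (8.81%) and 808 lower (6.29%). With total counts the split of the latter was 2070 higher and 282 lower, so this balance depends on the scaling, which moved the median of all genes by 0.329 on this scale. Against low polysomes it was 697 and 81, with a shift of 0.130. Both tests use the same monosome libraries. Most genes called in monosomes were not called in these differences. Of the 1083 higher genes, 1043 were not called against the low and 919 not against the high polysome change, and of the 1237 lower genes 1130 and 1086. Among the higher genes, 35 were called higher and 5 lower against the low polysome change, and 94 and 70 against the high. Among the lower genes, 68 were called lower and 39 higher against the low polysome change, and 116 and 35 against the high. Genes called in the same direction against both polysome changes numbered 27 among the higher and 24 among the lower genes. Over all genes tested, 296 were called higher and 69 lower against both. Only 3 genes were called higher in monosomes and lower in high polysomes, namely Cdkn2b, Shld1 and Zbed3, and 0 the other way round (limma).

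On the higher side, Pmaip1, Ifitm1, Msrb2, Atp6v0e, Mt1 and Bak1 had the largest monosome changes among genes called against both polysome changes, and were chosen for it. The limits on counts, overlap and symbol were those of the genes named above. Ifitm1 (ENSMUSG00000025491, chromosome 7, 140967221 to 140969825), an interferon-induced membrane protein, held 179, 176 and 175 CPM in the WT and 1329.7, 1425 and 1657 CPM in the KO libraries. Its log2 change was 3.05 in monosomes against 1.80 in low and 1.33 in high polysomes. The monosome change differed by 1.25 (SE 0.18, adjusted p = 1.53e-06) from the low polysome change and 1.72 (SE 0.19, adjusted p = 4.40e-09) from the high polysome change. Msrb2, which codes for a methionine sulfoxide reductase of mitochondria, had log2 changes of 2.64 in monosomes against 1.16 in low and 0.72 in high polysomes. Atp6v0e, a subunit of the vacuolar proton pump, had 1.85 in monosomes against 0.68 in low and 0.65 in high polysomes. Mt1 had 1.77 in monosomes against 0.34 in low and 0.59 in high polysomes, and Bak1 1.56 in monosomes against 0.48 in low and 0.40 in high polysomes. Pmaip1 had 3.84 in monosomes against 2.22 in low and 1.01 in high polysomes. Of the 6 genes, Pmaip1, Ifitm1 and Msrb2 were called higher in low polysomes too, and Pmaip1 and Ifitm1 in high polysomes. For Pmaip1 the monosome change exceeded the high polysome change by 2.83 (SE 0.48, adjusted p = 1.66e-05). Its difference from the low polysome change was 1.62, called in 3 of the 6 fits that each left out 1 gradient.

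On the lower side the genes chosen in the same way were H19, Rplp0, Aldoa, Rpl8, Eef1g and Eef1b2. The elongation factor messages were called in monosomes and in neither polysome fraction. Eef1b2, which codes for a subunit of elongation factor 1, had log2 changes of -1.69 in monosomes against 0.06 in low and 0.10 in high polysomes, and the monosome change differed by -1.75 (SE 0.15, adjusted p = 6.36e-10) from the low polysome change and -1.79 (SE 0.15, adjusted p = 3.64e-11) from the high polysome change. Eef1g (ENSMUSG00000071644, chromosome 19, 8967041 to 8978479), another subunit of the same factor, held 902, 966 and 965 CPM in the WT and 289.6, 269.9 and 315 CPM in the KO libraries, with log2 changes of -1.70 in monosomes against -0.54 in low and 0.06 in high polysomes. The ribosomal protein gene Rplp0 had log2 changes of -2.13 in monosomes against -1.06 in low and -0.82 in high polysomes and Rpl8 of -1.81 in monosomes against -0.65 in low and -0.79 in high polysomes. Aldoa had -1.98 in monosomes against -0.91 in low and -0.71 in high polysomes. Over the 17 other oligopyrimidine messages, the median change was -1.22 in monosomes against -0.46 in low and -0.10 in high polysomes, and 10 were called lower against the high polysome change. For ribosomal protein genes the medians were -1.17, -0.72 and -1.10. Of the 83 tested, 4 were called lower and 8 higher against the high polysome change, and 18 lower and 3 higher against the low. With total counts, the differences from the high polysome change were -0.99 for Rplp0, -0.93 for Aldoa and -0.69 for Rpl8, and those from the low polysome change -0.95 for Rplp0 and -0.94 for Aldoa, all under the fold threshold. Of the 6 fits that each left out 1 gradient, 4 kept the call against low polysomes for Rplp0 and Eef1g and 5 for Aldoa, and 4 kept the call against high polysomes for Rpl8. The difference of H19 from the high polysome change was called in 3 of these 6 fits, with a largest adjusted p of 0.123 in limma. The KO low polysome library with globin reads bears on H19: without it, the difference of H19 from the low polysome change was -1.58 in place of -3.15. The differences of Rplp0, Aldoa and Bak1 from the low polysome change then were -0.88, -0.94 and 0.96, under the fold threshold.

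**Figure D5:**
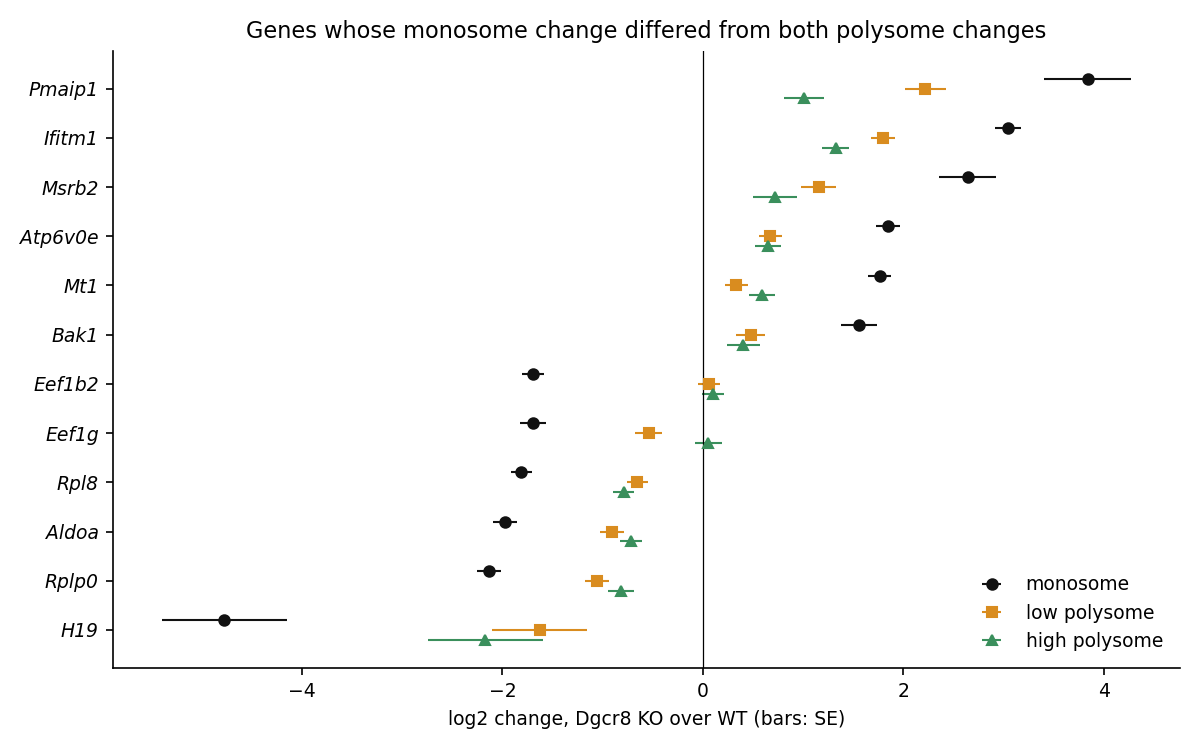
Log2 change (horizontal axis, Dgcr8 KO over WT, bars are SE) in monosomes (black circles), low polysomes (orange squares) and high polysomes (green triangles) of the 12 genes named because their monosome change was called against both polysome changes. The monosome point lies farthest from 0 in each row, as for Eef1b2 at -1.69 against 0.06 and 0.10.

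Atf4 differed between fractions in the other direction. Its log2 changes were -1.06 in monosomes against -2.74 in low and -3.25 in high polysomes, and its monosome change was called against both (adjusted p = 1.13e-09 and 1.92e-12). WT cells held 952 ± 36.1 CPM in monosomes and 1006 ± 35.6 CPM in high polysomes (n = 3 each). Histone genes had a median of 0.04 in monosomes and -1.71 in high polysomes, with 16 of 32 called higher in the difference. Respiratory chain and mitochondrial ribosomal protein genes had 29 of 72 and 23 of 77 such calls, a balance that depends on the scaling as above. Their medians of -0.10 and -0.33 in monosomes became -0.96 and -1.03 in high polysomes.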

How the data were processed

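The authors sequenced the 3′ ends of polyadenylated RNA from gradient fractions and deposited raw read counts per gene, without molecular identifiers. Reads were trimmed with Cutadapt 1.14 and aligned with STAR 2.5.3a to mm10, keeping unique alignments, and featureCounts 1.5.3 counted them by strand on GENCODE M14. Groups and replicates were taken from the sample titles. From these counts, genes with at least 3 CPM in at least 3 of 18 libraries were kept. limma-voom (limma 3.58.1, edgeR 4.0.16, R 4.3.3) with TMM factors fitted 6 group means, and p-values were adjusted with Benjamini and Hochberg's method over all genes tested. Differences between fractions were interaction terms of the same fit. CPM are counts relative to the tested genes' total, scaled with the TMM factor. The fit was tested on simulated data with known changes. Exact permutation tests were two-sided. DESeq2 1.42.0 and edgeR's quasi-likelihood test were alternatives. Genes were named by rule: Dgcr8 and Ddx6, and, among called genes with a mean of 50 or more monosome counts and groups that did not overlap, the 10 per direction with the largest change, the 5 most abundant, and the 6 with the largest change among those called against both polysome changes. Genes with a Gm or Rik placeholder symbol were left out of these choices. Up to 5 called members of each of 32 gene lists and the 5 8mer genes with the largest increase were added. Other list members are named to show genes that were not called or to complete a count, and were chosen after their values were seen. Members and lists were chosen with earlier results of these data known. Coordinates and UTRs came from GENCODE M21 (GRCm38), which held 51274 of 51467 genes, and microRNAs from RefSeq. Intervals and floors cover counting error only.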

Additional observations from a re-analysis of the deposited data

Results flagged for a closer look

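The change between KO and WT cells differed between fractions of the same gradients by an interaction term, for 647 genes against low polysomes and for 1940 against high polysomes (limma, adjusted p under 0.05 and a difference over 1 on the log2 scale). For the 12 genes chosen for this difference, the monosome change minus the high polysome change (log2) was 2.83 for Pmaip1, 1.92 for Msrb2, 1.72 for Ifitm1, 1.2 for Atp6v0e, 1.17 for Mt1 and 1.15 for Bak1. On the lower side it was -2.60 for H19, -1.79 for Eef1b2, -1.75 for Eef1g, -1.32 for Rplp0, -1.26 for Aldoa and -1.02 for Rpl8. Limma's adjusted p for these was highest for H19, at 0.0179, and it came to 2.08e-08 without the KO low polysome library that held globin reads, and to as much as 0.123 when 1 gradient was left out, with a call in 3 of 6 such fits. What sets these fractions apart was not tested.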

How the results depend on the processing

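The 2320 calls in monosomes became 3679 (2293 lower) when every gene with a count was tested, and the fold threshold alone kept out many: with the adjusted p alone 4797 genes were called (2245 higher, 2552 lower), against 1464 (963 higher, 501 lower) and 3621 (1950 higher, 1671 lower) in the differences from low and high polysomes. With total counts, the lower calls in these differences were 81 and 282, and the higher calls in the second were 2070. Leaving out 1 gradient gave 2136 to 2301 calls in monosomes (966 to 1129 higher, 1061 to 1178 lower), 558 to 719 (421 to 575 higher, 75 to 184 lower) against low polysomes and 1626 to 2054 (985 to 1119 higher, 624 to 935 lower) against high polysomes. The 75 lower calls against low polysomes came without WT replicate 2. With 1 replicate left out, the ribosomal protein share differed by -6.711 to -6.245 percentage points. edgeR called 2390 genes in monosomes, 2254 of them shared with limma in the same direction, DESeq2 2260 (2176 shared), and the 10 CPM filter 1742 (1702 shared). The medians of the pluripotency, trophoblast, noncoding RNA and respiratory chain lists were above 0 with total counts, at 0.06, 0.03, 0.02 and 0.01. With a replicate block 2365 genes were called, and with the gradient as a random effect 2316. With the monosome libraries alone, 11982 genes were tested and 2250 were called, 1136 higher and 1114 lower. The replicate numbers did not pair the genotypes, since same-numbered WT and KO monosome libraries deviated together with correlations of 0.011, 0.055 and 0.0002. With the protein-coding and lncRNA total, the protein-coding share differed by 0.2053 percentage points, since the other classes leave the total. The log2 change of Ddx6 was 0.018 with total counts and 0.016 without WT replicate 2, and ran from -0.146 to 0.016 when 1 gradient was left out, with no call. Of 137 named genes, 113 kept their direction and their side of the threshold under every alternative run that tested them. Some runs did not test all of them, and with the 10 CPM filter 123 could be compared. Thinning and leaving out the KO low polysome library of gradient 1, which held the most globin reads, were chosen after seeing the data. Without that library 2343 genes were called in monosomes, 590 against low and 1978 against high polysomes. Depth limits the least abundant genes: the median SE of the log2 change was 0.606 in the lowest quintile by level and 0.140 in the highest.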
